A study of Mus musculus with 4 samples.

Results

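The potassium channel genes of mouse cardiomyocytes were taken as the 94 of 22322 rows whose symbol starts with Kcn, the prefix given to pore-forming subunits of potassium channels and to several of their auxiliary subunits. Of these, 22 had a mean of at least 0.5 FPKM (deposited fragment values corrected for transcript length and library size) over the 4 libraries and formed the expressed set. The other 72 lay below that level, and 22 of them had no count in any library. RNA was sequenced from cardiomyocytes of 2 sham-operated mice and 2 mice with transverse aortic constriction (TAC), a narrowing of the aorta that loads the left ventricle with pressure, to ask which genes differ in the failing heart. Male mice were operated at 2 months of age and hearts were digested by Langendorff perfusion. The methods give 14 weeks both as the time after the operation and as the age of the mice, and for the strain the sources used here give nothing. Each library held part of the myocytes of a single heart, and the labels name no genotype for either group.

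Potassium channels let potassium leave the cell and thereby end the cardiac action potential and hold the resting voltage. In mouse ventricle, fast transient outward channels carry most of the early repolarisation, inward rectifiers set the resting voltage, and slower delayed rectifiers add to the later phase. Channels gated by acetylcholine, by cellular ATP or by acid act as modulators, and auxiliary subunits change how much pore protein reaches the membrane and how it gates.

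The members share the selectivity filter, a short stretch of glycine, an aromatic residue and glycine that strips water from the potassium ion. Searched as serine or threonine, any residue, glycine, tyrosine or phenylalanine, glycine in the longest coding sequence of each gene (GENCODE, mouse build GRCm38), it was found in 20 of the 22 expressed members. The other 2, Kcnip2 and Kcne1, encode auxiliary subunits without a pore of their own. A tyrosine filter was found in 17 members and a phenylalanine filter in 4, with Kcnk3, whose subunit carries a pair of pore loops, counted under both. The coding bases around the filter are shown for the members on which the results below turn, with the codons of the glycine, aromatic residue and glycine in capitals.
Kcnh2: accagcgtgGGCTTTGGCaatgtc
Kcnd2: acaacactgGGGTATGGCgacatg
Kcnd3: actacactgGGATATGGAgacatg
Kcnj3: gccaccatcGGCTATGGCtaccgc
Kcnj5: acaaccattGGGTATGGCttcaga
Kcnj2: acaaccattGGCTATGGTttcagg
Kcnj8: gtgaccattGGGTTTGGAgggaga
Kcnj11: gtgaccattGGTTTCGGCgggcgc
Kcnk3, first loop: accaccatcGGCTATGGTcatgcg
Kcnk3, second loop: accaccatcGGCTTCGGCgactat
Kcnc1: acgacactgGGCTATGGAgacatg

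The first glycine of these stretches was codon 628 of 1162 in Kcnh2, codon 372 of 630 in Kcnd2, codon 145 of 501 in Kcnj3 and codon 151 of 419 in Kcnj5. Close relatives among the members were nevertheless distinct at the level of the transcript. The encoded Kcnd2 and Kcnd3 proteins were identical at 77.9% of 625 aligned residues, and the longest run of bases shared by their transcripts was 23. Kcnj3 and Kcnj5 were identical at 59.8% of 405 aligned residues, with a longest shared run of 14 bases. All expected counts of the expressed members were whole numbers, so the deposited counts show no fragment divided between these genes.

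Depth was between 24237777 and 32118323 expected counts per library, and the expressed members had between 31 and 8447 counts each. Mitochondrial genes took 47.42% of the counts in TAC 1 and between 39.84% and 40.85% in the other libraries, so changes were measured on counts relative to library size (CPM) scaled by trimmed means (TMM), with factors from 0.8683 to 1.097. Cardiomyocyte markers were abundant in every library, and 0 of 10 passed the test between TAC and sham. Of the markers of other cells, all 10 endothelial, 8 fibroblast, 7 mural (pericyte and smooth muscle) and 9 macrophage genes had negative log2 fold changes, of which 3, 2, 1 and 0 passed the test, where 5.01% of all genes tested passed. The summed CPM of the macrophage markers overlapped between groups (124 and 62.6 in sham, 33.5 and 63.4 in TAC). Of the 5 red blood cell markers 3 were positive and 2 negative, with a median log2 fold change of 0.07, and 0 were called, as for the 1 lymphocyte marker that could be tested. Their part in the results below was not tested. In such bulk samples, fewer cells of a type and less RNA per cell cannot be told apart. The methods speak of pairs of sham and TAC mice, but neither they nor the labels say that a replicate number marks a pair. The p-values rest on 2 libraries per group, and the fits draw the spread of each gene towards that of the other genes.

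Levels of the 22 expressed members spanned about 2 orders of magnitude in FPKM, which is per length and can be set side by side between genes. The most abundant was Kcnk3, which encodes the acid-sensitive background channel TASK-1, with 76.8 and 65.8 FPKM in sham and 58.2 and 76.1 FPKM in TAC. It was followed by Kcng2, a silent subunit that modifies other Kv channels (mean 52.3 FPKM), Kcnip2, the cytosolic KChIP2 subunit of transient outward channels (49.4 FPKM), and Kcnj11, the Kir6.2 pore of ATP-sensitive channels (45.8 FPKM). These 4 genes held 59.6% and 58.4% of the summed FPKM of all Kcn rows in sham, and 66.3% and 66.8% in TAC.
Below them came Kcnj3 (21.9 FPKM), Kcnj5 (16.9 FPKM), Kcnh2 (16.6 FPKM) and Kcnq1 (15.3 FPKM). Next came Kcnj2 (9.21 FPKM), Kcnn1 (7.69 FPKM), Kcnj12 (7.24 FPKM), Kcnd2 (6.28 FPKM) and Kcnn2 (4.5 FPKM). Lower still were Kcnj8 (3.29 FPKM), Kcnd3 (3.06 FPKM), Kcna7 (2.28 FPKM), Kcnv2 (2.12 FPKM), Kcna5 (1.73 FPKM), Kcne1 (1.52 FPKM) and Kcnj14 (0.722 FPKM). Just outside the limit lay Kcnj4 at 0.47 FPKM. Most neighbours in this order were not separated: the ranges over the 4 libraries failed to overlap only between Kcnk3 and Kcng2, between Kcnj11 and Kcnj3, and between Kcnq1 and Kcnj2.

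**Figure D1:**
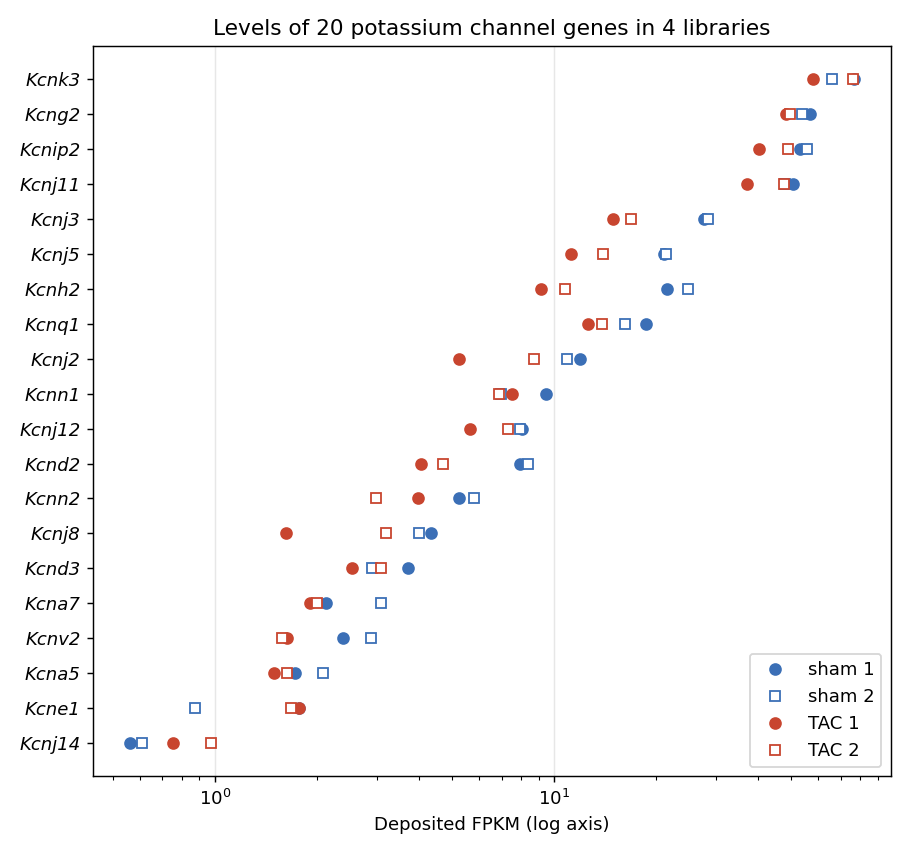
Deposited FPKM (log axis) of 20 of the 22 expressed members, a row per gene in order of the mean, with filled and open symbols for replicates 1 and 2 of sham and TAC. Kcnk3 is at the top with a mean of 69.3 FPKM and Kcnj14 at the bottom with 0.722 FPKM. Both TAC symbols lie to the left of both sham symbols in most rows, among them Kcnj3, Kcnj5, Kcnh2 and Kcnd2.

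By role, the 15 inward rectifier rows, 7 of them expressed, took 31.3% and 31.8% of the summed Kcn FPKM in sham and 27.8% and 29.8% in TAC. The Kv7 and EAG family delayed rectifiers took 10.4% and 11.1% in sham and 8.19% and 7.84% in TAC, and the K2P family, of which Kcnk3 was the only expressed member, took 19.6% and 17.5% in sham and 21.2% and 23% in TAC. The Kv1 to Kv4 pores took 5.79% and 6.25% in sham and 5.37% and 5.3% in TAC, the auxiliary subunits 14.2% and 15% in sham and 15.2% and 15.5% in TAC, and the silent subunits 14.9% in both sham libraries and 18.1% and 15.4% in TAC. The calcium- and sodium-activated channels, at 3.89% and 3.43% in sham and 4.18% and 3.06% in TAC, were the only family whose shares overlapped between groups. A share moves with the other families: the summed FPKM of the K2P family itself was 78 and 66.8 in sham and 58.6 and 76.6 in TAC and overlapped. Being taken within a library, shares do not depend on how libraries are scaled.

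Between TAC and sham, 4 of the 22 expressed members were called at an adjusted p under 0.05 in edgeR's quasi-likelihood test, and all 4 were lower in TAC: Kcnh2, Kcnd2, Kcnj3 and Kcnj5. Over all 12499 genes tested, 5.01% were called, 2.43% as lower and 2.58% as higher, and among the genes with at least 0.5 FPKM 2.73% were called lower. No expressed member was called higher. At an unadjusted p under 0.05 there were 11 members, 9 lower and 2 higher, where 27.5% of all genes tested passed. Both TAC libraries lay below both sham libraries in CPM for 13 members, against 30.3% of all genes, and above them for 3 members, against 29.8% of all genes, while 6 members overlapped. The log2 fold change was negative for 17 members and positive for 5, with a median of -0.18 beside -0.01 for all genes tested and 0.02 for those with at least 0.5 FPKM. The smallest two-sided p that exact permutation of 2 libraries against 2 allows is 0.333, so no gene was tested that way.

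**Figure D2:**
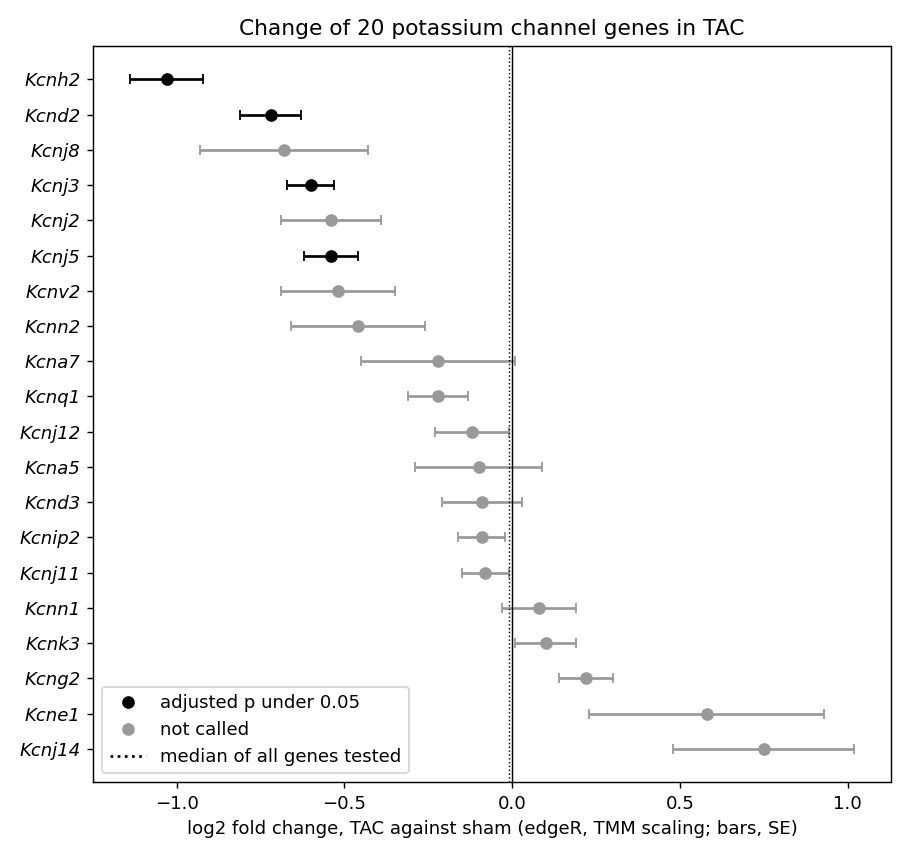
Log2 fold change of TAC against sham for 20 of the 22 expressed members (edgeR, TMM scaling; bars are standard errors), ordered from the most negative at the top, with called genes in black and the median of all genes tested dotted. The 4 called genes lie between -1.03 (Kcnh2) and -0.54 (Kcnj5), and the highest value, 0.75 for Kcnj14, was not called.

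Among the delayed rectifiers, Kcnh2, the pore of the rapid delayed rectifier (ERG), had the largest decrease of the expressed members. It is encoded at chr5:24319589-24351604 on the minus strand (GRCm38). It was measured at 71.2 and 86.5 CPM in sham and at 38.2 and 39.1 CPM in TAC, so the groups did not overlap and the TAC libraries were close to each other. The mean fell from 78.9 ± 10.8 to 38.6 ± 0.69 CPM (SD, n = 2), a log2 fold change of -1.03 ± 0.11 (SE) and an adjusted p of 0.00492 in edgeR. Kcnq1, the pore of the slow delayed rectifier, was at 51.4 and 47 CPM in sham and 43.9 and 40.6 CPM in TAC. Its groups did not overlap either, but its log2 fold change of -0.22 ± 0.09 had an unadjusted p of 0.0387 and an adjusted p of 0.161 in edgeR. The ratio of Kcnh2 to Kcnq1 in FPKM, taken within each library, was 1.15 and 1.53 in sham and 0.725 and 0.787 in TAC, so the order of the pair was the opposite in the 2 groups. Kcne1, the small membrane partner of Kcnq1, was counted with only 31 to 69 fragments per library and its log2 fold change of 0.58 ± 0.35 had an adjusted p of 0.311 in edgeR. The value of Kcne1 was 1.07 without sham 1 and 0.24 without sham 2.

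For the transient outward channels, Kcnd2, which encodes the fast pore Kv4.2 (chr6:21215503-21729805, plus strand), was at 37.4 and 41.6 CPM in sham and at 24 CPM in both TAC libraries. The mean fell from 39.5 ± 3.03 to 24 ± 0.0373 CPM (SD, n = 2), with a log2 fold change of -0.72 ± 0.09 and an adjusted p of 0.0104 in edgeR. Its relative Kcnd3, which encodes Kv4.3, was at 21.8 and 18.6 CPM in sham and 18.2 and 19.9 CPM in TAC, so its groups overlapped (log2 fold change -0.09 ± 0.12). Within each library the FPKM ratio of Kcnd2 to Kcnd3 was 2.14 and 2.9 in sham and 1.6 and 1.52 in TAC. Kcnip2, whose KChIP2 product binds both pores, lay at 104 and 111 CPM in sham and 101 CPM in both TAC libraries, a log2 fold change of -0.09 ± 0.07 with an adjusted p of 0.465 in edgeR. The FPKM ratio of Kcnip2 to Kcnd2 was therefore higher in TAC, at 9.93 and 10.4, than in sham, at 6.68 and 6.62.

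The remaining expressed Kv subunits were not called in edgeR with TMM scaling and the low-count filter. Kcnv2, a silent subunit that joins other Kv pores, was at 11.1 and 14.1 CPM in sham and 9.58 and 7.97 CPM in TAC, a log2 fold change of -0.52 ± 0.17 (unadjusted p 0.0148, adjusted p 0.101 in edgeR). Its groups did not overlap, and it was not called, but with no low-count filter it was (adjusted p 0.0392 in edgeR). The value of Kcnv2 was -0.69 without sham 1 (adjusted p 0.0435 in edgeR) and -0.33 without sham 2 (adjusted p 0.353). The other silent subunit, Kcng2, was at 84.6 and 76.9 CPM in sham and 93.8 and 94 CPM in TAC, a log2 fold change of 0.22 ± 0.08 (unadjusted p 0.0254, adjusted p 0.131 in edgeR).
In deposited FPKM the direction of Kcng2 was the opposite, with 56.9 and 53.9 in sham and 48.4 and 49.8 in TAC. The transcript length implied by its count and FPKM differed up to 1.28-fold between libraries. With counts scaled by total counts the log2 fold change of Kcng2 was 0.03, and with limma on FPKM it was -0.17, so that no direction could be given. The cause was not tested. Kcna5, the Kv1.5 pore of an ultrarapid current, and Kcna7, a Kv1 pore of heart and skeletal muscle, both overlapped between groups in CPM, with log2 fold changes of -0.10 ± 0.19 and -0.22 ± 0.23.

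The subunits of the acetylcholine-gated channel, Kcnj3 (GIRK1, chr2:55435970-55598145, plus strand) and Kcnj5 (GIRK4, chr9:32314707-32344350, minus strand), were both lower in TAC. Kcnj3 was at 109 and 108 CPM in sham and 69.4 and 74.3 CPM in TAC, and Kcnj5 at 81.1 and 85.7 CPM in sham and 55.2 and 60 CPM in TAC. Neither overlapped between groups, and the gap was wider than the spread within either group. The log2 fold change was -0.60 ± 0.07 for Kcnj3, with an adjusted p of 0.00896, and -0.54 ± 0.08 for Kcnj5, with an adjusted p of 0.0173, in edgeR. The FPKM ratio of Kcnj3 to Kcnj5 within a library was 1.31 and 1.33 in sham and 1.33 and 1.22 in TAC, so it overlapped between groups. This holds for the FPKM scale only, because the transcript length implied by count and FPKM differed up to 1.12-fold between libraries for Kcnj3. For Kcnj3, 1621 of 5215 annotated exonic bases (31.1%) also lie in exons of Gm26794, a long non-coding RNA on the opposite strand that was not analysed here. Whether counting used strand is not stated in the labels or the methods, so fragments of the pair may not be told apart. No such overlap was annotated for Kcnj5, Kcnh2 or Kcnd2.

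Both GIRK genes are best known from atrial cells, so they were set beside the 4 atrial marker genes. The summed CPM of these markers was 71.2 in sham 1 but only 5.66 in sham 2, with 25.1 in TAC 1 and 34.9 in TAC 2, so the sham libraries were the highest and the lowest of the 4. Myl7, the atrial myosin light chain, ranged from 1.32 CPM in sham 2 to 25.8 CPM in sham 1, and 0 of the 3 atrial markers tested were called. Kcnj3 had an SD of 0.878 CPM within sham (n = 2) around a mean of 109 CPM, and without sham 1 or without sham 2 it remained called, as did Kcnj5. The part of atrial cells in the values of Kcnj3 and Kcnj5 was not tested.

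**Figure D3:**
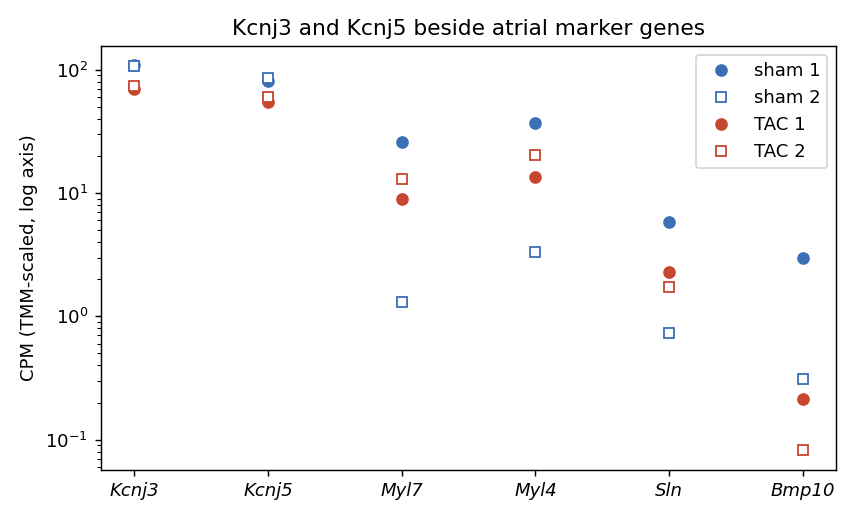
CPM (TMM-scaled, log axis) of Kcnj3, Kcnj5 and the 4 atrial markers Myl7, Myl4, Sln and Bmp10 in each library. The sham symbols of Kcnj3 lie together at 109 and 108 CPM, while those of Myl7 lie apart at 25.8 and 1.32 CPM.

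Of the classical inward rectifiers, Kcnj2, the Kir2.1 pore that holds the resting voltage, was at 59.2 and 57.1 CPM in sham and at 33 and 47.2 CPM in TAC. Both TAC libraries lay below sham, but they stood far apart from each other, and the log2 fold change of -0.54 ± 0.15 had an unadjusted p of 0.00833 and an adjusted p of 0.0814 in edgeR. The value of Kcnj2 rested on the TAC libraries: it was -0.30 without TAC 1 (adjusted p 0.173 in edgeR) and -0.82 without TAC 2 (adjusted p 0.00233). Kcnj2 was also called with DESeq2 (adjusted p 0.0127) and in edgeR with no low-count filter (adjusted p 0.00683). Its partner pore Kcnj12 (Kir2.2) was at 16.8 and 17.4 CPM in sham and 14.9 and 16.6 CPM in TAC, with a log2 fold change of -0.12 ± 0.11. Kcnj14 (Kir2.4), the lowest expressed member with 43 to 65 fragments per library, was at 1.36 and 1.56 CPM in sham and 2.33 and 2.58 CPM in TAC. Its groups did not overlap and its log2 fold change was 0.75 ± 0.27, with an unadjusted p of 0.0268 and an adjusted p of 0.134 in edgeR.

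The pores of the ATP-sensitive channel differed in level by more than an order of magnitude in FPKM. Kcnj11 (Kir6.2) was at 142 CPM in both sham libraries and at 130 and 140 CPM in TAC, with a log2 fold change of -0.08 ± 0.07. Kcnj8 (Kir6.1), which is known from vascular smooth muscle and pericytes, was at 10.1 and 9.73 CPM in sham and 4.48 and 7.97 CPM in TAC. Its log2 fold change of -0.68 ± 0.25 had an unadjusted p of 0.027 and an adjusted p of 0.134 in edgeR. Without TAC 1 the log2 fold change of Kcnj8 was -0.31 and without TAC 2 it was -1.14, the latter with an adjusted p of 0.00788 in edgeR, and with no low-count filter the adjusted p was 0.0345. The summed CPM of the 7 mural markers was 367 and 380 in sham and 157 and 268 in TAC. All 7 were detected in every library, and TAC 1 was the lowest library for both these markers and Kcnj8. TAC 1 was also the lowest for the endothelial sum (564 and 457 in sham, 270 and 377 in TAC). The same held for the fibroblast sum (233 and 167 in sham, 95.8 and 132 in TAC) and the macrophage sum. This order was therefore not particular to mural markers. The part of these cell types in the value of Kcnj8 was not tested.

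The acid-sensitive channel Kcnk3 was at 267 and 241 CPM in sham and 256 and 288 CPM in TAC, and the groups overlapped (log2 fold change 0.10 ± 0.09, adjusted p 0.52 in edgeR). Of the small-conductance channels opened by calcium, Kcnn1 (SK1) was at 15.9 and 14.8 CPM in sham and 15.8 and 16.6 CPM in TAC and overlapped. The transcript length implied by the count and FPKM of Kcnn1 differed up to 1.33-fold between libraries, which limits its FPKM values. Kcnn2 (SK2), the form best known from heart muscle, was at 10.7 and 14 CPM in sham and 10.4 and 7.44 CPM in TAC. Its groups were separated by less than their spread, and its log2 fold change of -0.46 ± 0.20 had an unadjusted p of 0.0515 and an adjusted p of 0.185 in edgeR. The value of Kcnn2 was -0.73 without TAC 1, -0.24 without TAC 2 and -0.25 without sham 2.

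Of the 72 members below 0.5 FPKM, 16 had enough counts to be tested and 34 had a count but were too low. Of the 16, 1 was called, a share near the 5.01% of all genes tested. Their median log2 fold change was -0.67, with 11 negative and 5 positive, and both TAC libraries lay below both sham libraries for 9 of them and above for 2, where the shares of all genes were 30.3% and 29.8%. At an unadjusted p under 0.05 there were 5, of which 4 were lower, a share near the 27.5% of all genes. The called gene went the other way from most. Kcnc1, which encodes the Kv3.1 pore of fast-firing neurons (chr7:46396497-46438704, plus strand), was at 1.55 and 1.42 CPM in sham and 3.48 and 3.89 CPM in TAC. The mean rose from 1.49 ± 0.0875 to 3.68 ± 0.287 CPM (SD, n = 2), from 49 and 41 fragments in sham to 97 and 95 in TAC, with a log2 fold change of 1.30 ± 0.24 and an adjusted p of 0.031 in edgeR. At a mean of 0.33 FPKM it remained far below the expressed Kv pores. It was not called without TAC 1 (log2 fold change 1.38), without sham 2 (1.25), with scaling by total counts (1.12), or with limma on FPKM. The 4 markers of nerve and Schwann cells summed to 1.67 and 1.84 CPM in sham and 1.18 and 1.19 CPM in TAC, and the 1 that could be tested was not called. The other 15 tested low members had adjusted p values from 0.115 to 0.996 in edgeR.

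**Figure D4:**
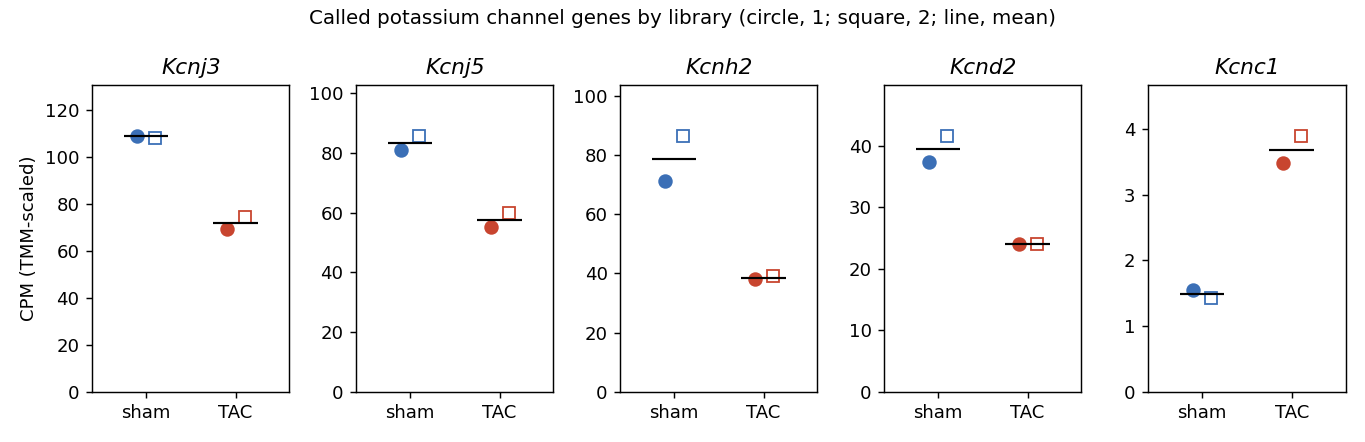
CPM (TMM-scaled, linear axes from 0) by library for the 4 expressed members called lower and for Kcnc1, with circles for replicate 1, squares for replicate 2 and lines at the group means. In all 5 panels the sham and TAC libraries are apart, at 71.2 and 86.5 against 38.2 and 39.1 CPM for Kcnh2.

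The genes that work with these channels but carry other names were taken from 3 lists. Of 9 further subunits, 5 were tested and only Abcc9, the SUR2 sulphonylurea receptor that surrounds the Kir6 pores, was called, where 5.01% of all genes tested were called. It was at 380 and 406 CPM in sham and 279 and 303 CPM in TAC, with a log2 fold change of -0.43 ± 0.08 and an adjusted p of 0.031 in edgeR, while its relative Abcc8 overlapped between groups (log2 fold change -0.02 ± 0.09). The sum of the mural markers, given above with Kcnj8, was also lower in TAC, as were the endothelial and fibroblast sums. The part of these cells in the value of Abcc9 was not tested. Of the 6 scaffolds and anchors, among them Akap9, which tethers the slow delayed rectifier, 0 were called, with a median log2 fold change of 0.0018. Of 5 transcription factors known to act on potassium channel genes, Irx3, an Iroquois factor of the ventricular conduction system, was called. It was at 26.5 and 25.4 CPM in sham and 16.7 and 17.6 CPM in TAC, with a log2 fold change of -0.60 ± 0.10 and an adjusted p of 0.0212 in edgeR. Its relatives Irx4 and Irx5, the latter known to act on Kcnd2, had log2 fold changes of -0.39 ± 0.11 and -0.28 ± 0.15 and were not called. Klf15, a Krüppel-like factor known to act on Kcnip2, had a log2 fold change of 0.20 ± 0.18, which was -0.09 without sham 1 and 0.55 without sham 2, the latter with an adjusted p of 0.0347 in edgeR. The 4 conduction system markers summed to 24.2 and 22.4 CPM in sham and 18.2 and 19.2 CPM in TAC, and 0 of the 3 tested were called. Without TAC 1 neither Abcc9 (log2 fold change -0.38, adjusted p 0.103 in edgeR) nor Irx3 (-0.56, adjusted p 0.059) was called, and without sham 2 Abcc9 was not called either (-0.38, adjusted p 0.0621).

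The promoters of the 4 members called lower are shown because these genes were lower together, as the 250 bases before the start in RefSeq (mouse build GRCm38.p6), with motif matches in capitals. RefSeq entries were matched for 12 of the 22 expressed members. Searched on both strands were the GC box GGGCGG, the E-box CACGTG, the cAMP response element TGACGTCA, the Iroquois site ACANNTGT, the TATA box TATAAA and the CCAAT box CCAAT. A match to the Iroquois site can hold an E-box, and no other of these motifs can hold another. The windows are chr5:24329592-24329841 (minus strand) for Kcnh2, chr6:21215096-21215345 (plus strand) for Kcnd2, chr2:55435720-55435969 (plus strand) for Kcnj3 and chr9:32344345-32344594 (minus strand) for Kcnj5.
Kcnh2: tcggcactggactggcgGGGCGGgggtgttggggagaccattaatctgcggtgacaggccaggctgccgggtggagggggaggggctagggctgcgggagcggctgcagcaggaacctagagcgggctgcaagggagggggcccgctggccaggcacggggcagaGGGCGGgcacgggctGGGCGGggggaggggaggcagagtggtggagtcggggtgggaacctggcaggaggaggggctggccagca
Kcnd2: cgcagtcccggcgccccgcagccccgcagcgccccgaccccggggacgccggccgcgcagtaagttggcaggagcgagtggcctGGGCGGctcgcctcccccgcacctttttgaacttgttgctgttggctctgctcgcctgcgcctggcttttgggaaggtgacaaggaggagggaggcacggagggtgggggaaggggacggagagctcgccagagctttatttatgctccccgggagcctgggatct
Kcnj3: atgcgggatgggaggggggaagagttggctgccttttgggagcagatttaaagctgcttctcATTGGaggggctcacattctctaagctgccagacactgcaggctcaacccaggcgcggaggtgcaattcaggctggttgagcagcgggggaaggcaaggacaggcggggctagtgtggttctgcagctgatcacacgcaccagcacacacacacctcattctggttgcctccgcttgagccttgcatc
Kcnj5: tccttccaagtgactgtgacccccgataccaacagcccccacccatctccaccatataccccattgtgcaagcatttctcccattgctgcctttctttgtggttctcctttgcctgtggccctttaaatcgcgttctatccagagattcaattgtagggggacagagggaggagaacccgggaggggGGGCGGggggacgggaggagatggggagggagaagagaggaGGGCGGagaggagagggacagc

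A GC box was found in 3 of these 4 windows. Kcnh2 had it at -233, -85 and -70 bases, Kcnd2 at -166 bases, and Kcnj5 at -63 and -22 bases from the start, counted to the first base of the match. Kcnj3 held a CCAAT box on the opposite strand at -188 bases and none of the other motifs. Over the 12 expressed members with an entry, 6 (50%) held a GC box, beside 35.4% of 27025 genes with a RefSeq promoter, and 4 (33.3%) held a CCAAT box, beside 37.5%. The E-box was found in a single member, Kcnj2, and in 6.86% of all genes; the Iroquois site in a single member, Kcna7, and in 7.2% of all genes. The TATA box was found in 0 of 12 members and 14.3% of all genes, and the cAMP response element in 0 of 12 and 1.77%. The Kcnh2 entry lies at the start of a shorter transcript, inside an intron of the longest one. The Kcnd2 window ends at base 21215345, before the annotated start of the gene in GENCODE at base 21215503, so its position is counted from the RefSeq start only. A match describes these letters only, and no binding was measured.

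Under the other processing choices, all 4 called members remained called in 9 of 11 alternative fits, among them each of the fits without a library. Both exceptions were the limma fits on log2 FPKM, which called 0 of all genes. In each of them 9 members had an unadjusted p under 0.05. Of the 15995 genes fitted, 2393 did so with 0.1 added to FPKM and 2552 with 1 added. Kcnh2 ranged from -1.21 to -0.88 in log2 fold change, Kcnd2 from -0.90 to -0.63, Kcnj3 from -0.82 to -0.55 and Kcnj5 from -0.76 to -0.48. Scaling by total counts, the scaling named in the methods of the study, moved the median of all genes tested to -0.20 and that of the members to -0.36. It called 5 members lower, the same 4 and Kcnv2, where 3.38% of all genes were called lower. The directions of Kcnk3 and Kcnn1 turned negative under total counts and on the FPKM scale, so that no direction could be given for either.

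**Figure D5:**
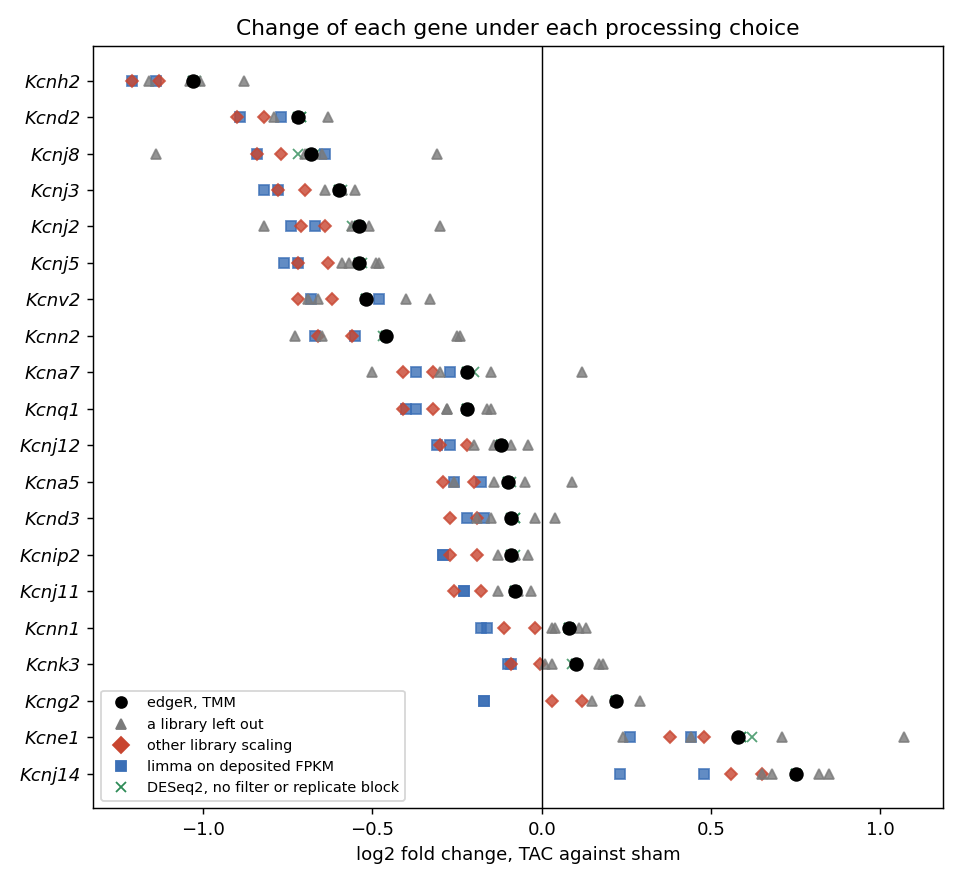
Log2 fold change of 20 of the 22 expressed members under each processing choice, with black circles for edgeR with TMM scaling and other symbols for the alternatives. The values of Kcnh2, Kcnd2, Kcnj3 and Kcnj5 stay below -0.48 or at it, while those of Kcnk3, Kcng2 and Kcnn1 fall on both sides of 0.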

How the data were processed

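RNA sequencing of isolated cardiomyocytes gave 1 table per library for 2 sham and 2 TAC mice, and groups were taken from the sample titles. Per table, the authors deposited an expected count per gene, an estimated count that need not be whole, and FPKM, a value per transcript length and library size. The submitters' processing notes name Bowtie2 2.2.8, StringTie 1.3.1 and mm10. The counting program, the annotation and any use of strand were not given in the sources used here.

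Expected counts were rounded to whole numbers and tested with edgeR 4.0.16 in R 4.3.3 (genes kept by filterByExpr, TMM scaling, quasi-likelihood test, Benjamini-Hochberg adjustment over the 12499 genes kept, threshold 0.05), after a check on simulated data. CPM values are TMM-scaled. The common biological coefficient of variation was 10.5%, and replicates differed beyond counting noise (chi-square per degree of freedom 9.19 in sham and 31.3 in TAC). Depth was 24237777 to 32118323 counts per library. Alternatives were DESeq2 1.42.0, limma 3.58.1 on log2(FPKM + 0.1) and log2(FPKM + 1), other scalings, no filter, other thresholds, a replicate block and each library left out.

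Of the members with at least 0.5 FPKM, those called or with an unadjusted p under 0.05 were named with every library's value, the others by role, and lower members only if called; 2 of the 22 expressed members and some other genes were counted in the totals but are not reported here. Members and lists (roles, partners, markers, motifs) were chosen with earlier results of these data known. Coordinates, transcripts and coding sequences came from GENCODE for GRCm38, the assembly named mm10, and promoters from RefSeq for GRCm38.p6.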

Additional observations from a re-analysis of the deposited data

How the results depend on the processing

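In edgeR's main setting 4 expressed potassium channel genes were called, all lower, with a median log2 fold change of -0.18 and 2 partner genes called. With limma on FPKM, which called 0 of all genes (2393 at an unadjusted p under 0.05 with a pseudocount of 0.1, 2552 with 1), 0 members and 0 partners were called, and the median was -0.34 or -0.28. At an adjusted p under 0.01, 2 members, both lower, and 0 partners were called. At 0.1 there were 5 members, all lower, and 4 partners. The share of all genes passing at these 2 thresholds was not counted, so nothing is read from these numbers. With no low-count filter 7 members, all lower, and 4 partners were called, and 1676 of 16015 genes in all. The median was -0.36 with total counts and -0.28 with totals without mitochondrial genes, where the median of all genes was -0.20 and -0.11. With each library left out, called members ranged from 4 to 6, called partners from 0 (without TAC 1) to 4 (without TAC 2), and the median from -0.26 (without sham 1) to -0.14. All genes called ranged from 301 without TAC 1 to 1336 without TAC 2, beside 626. With the replicate block 5 members were called, Kcnj2 being added (log2 fold change -0.56, adjusted p 0.0459 in edgeR), and 566 of all genes. Deviations of same-numbered libraries correlated at -0.242 over genes, and with crossed numbers, a pairing added after the data were seen, 8 members, all lower, and 2131 of all genes were called.

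Directions turned for uncalled genes only. Kcnk3 was at -0.10 and -0.09 with limma (pseudocounts 0.1 and 1), -0.09 with total counts and -0.0046 with totals without mitochondrial genes; Kcnn1 at -0.18, -0.16, -0.11 and -0.02; Kcng2 at -0.17 with both limma fits. With a library left out, Kcnd3 ranged from -0.19 to 0.04, Kcna7 from -0.50 to 0.12, Kcna5 from -0.26 to 0.09, Abcc8 from -0.09 to 0.05, Akap9 from -0.11 to 0.04 and Klf15 from -0.09 (without sham 1) to 0.55 (without sham 2). The cause was not tested. Over the single members and partner genes reported and their alternatives, 260 values kept direction and side of the threshold, 11 gained a call, 20 lost one and 17 turned. Depth limits the members below 0.5 FPKM, of which 34 with a count could not be tested.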
